A study of Mus musculus with 14 samples.

Results

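Receptor tyrosine kinases are cell surface proteins that bind a growth factor outside the cell and carry a kinase inside it. Ligand binding joins receptor molecules, which phosphorylate each other and recruit adaptor proteins that start signalling to growth, survival and migration. Fibroblasts are known for responding to platelet-derived growth factor (PDGF), fibroblast growth factor (FGF), epidermal growth factor (EGF) and insulin-like growth factor (IGF). KIT and KDR are better known from mast cells, melanocytes and blood cells and from the endothelium, respectively, and ERBB2 from epithelia.

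The genes of 10 receptors were chosen by name out of 21938 protein-coding genes. Of these, 7 are receptors known from fibroblasts, namely Pdgfra, Pdgfrb, Fgfr1, Egfr, Igf1r, Met and Axl. Kit, Kdr and Erbb2 were set against them. For each gene, trimethylation of lysine 4 of histone H3 (H3K4me3), a mark of promoters, and the putative enhancers in and around the gene are described. A promoter peak was a H3K4me3 peak with any base within 1 kb of a transcription start site (TSS) of the gene. Enhancers were counted in the gene and up to 200 kb on both sides of it.

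H3K4me3 was measured by chromatin immunoprecipitation and sequencing (ChIP-seq) in iMEF, immortalised mouse embryo fibroblasts with floxed Ash2l alleles and Cre-ER. The complexes that methylate H3K4 need ASH2L as a subunit. All cells lacked exon 4 of their own Ash2l, and instead human ASH2L with an N-terminal FKBP12F36V tag was made from a lentiviral construct, so that the compound dTAG induces degradation of the only ASH2L protein. The 12 H3K4me3 libraries fall into 6 groups of 2, without dTAG and with dTAG for 30 min, 2 h, 4 h, 8 h or 16 h, and 2 further libraries are inputs, 1 without dTAG and 1 with dTAG for 16 h. According to the study's methods the experiments were mainly done with the single clone NG3, and the labels do not name the clone. The lists analysed hold 25431 H3K4me3 peaks over all libraries and 32965 putative enhancers of control cells, as positions without a score. A peak can therefore come from any of the groups. Of the peaks, 25357 lie on the 21 chromosomes used here, as do all the enhancers. Changes with dTAG were not analysed here, no replicate error or test was possible, and all values describe positions only. Marker genes of cell types, chosen with earlier results of these data known, were described as well. A promoter peak was found at 9 of 9 fibroblast markers, with widths between 382 and 3018 bp, compared with 59.1% of all protein-coding genes. It was found at 0 of 5 markers of blood and mast cells, 1 of 5 of endothelium (Tek, 435 bp), 1 of 4 of melanocytes (Pmel, 1387 bp) and 2 of 5 of epithelium (Cdh1, 602 bp, and Epcam, 724 bp).

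To show what the promoters look like, up to 200 bases directly upstream of the outermost annotated start (RefSeq or GENCODE) are given for 7 of the 10 genes, with each CpG dinucleotide in capitals. The sequences are from RefSeq, build GRCm38.p6. They were selected because these genes span the range from a very wide peak at a CpG-rich start (Igf1r) to a CpG-rich start without a peak (Kit). The range includes a wide peak at a CpG-poor start (Axl) and one that begins downstream of a CpG-poor start (Pdgfra).
Igf1r, chr7:67952057-67952256, plus strand: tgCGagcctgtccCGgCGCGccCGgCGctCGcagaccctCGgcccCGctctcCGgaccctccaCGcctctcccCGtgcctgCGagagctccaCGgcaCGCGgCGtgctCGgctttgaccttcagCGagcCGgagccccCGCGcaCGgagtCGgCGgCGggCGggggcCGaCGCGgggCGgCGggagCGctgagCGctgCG
Egfr, chr11:16752003-16752202, plus strand: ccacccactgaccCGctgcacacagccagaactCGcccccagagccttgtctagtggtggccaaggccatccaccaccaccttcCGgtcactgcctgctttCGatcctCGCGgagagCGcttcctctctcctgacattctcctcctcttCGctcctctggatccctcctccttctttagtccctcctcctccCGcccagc
Axl, chr7:25788734-25788933, minus strand: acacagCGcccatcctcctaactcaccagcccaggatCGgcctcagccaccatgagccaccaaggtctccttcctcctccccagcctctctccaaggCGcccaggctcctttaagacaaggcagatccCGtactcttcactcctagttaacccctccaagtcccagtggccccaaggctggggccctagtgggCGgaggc
Pdgfra, chr5:75152051-75152250, plus strand: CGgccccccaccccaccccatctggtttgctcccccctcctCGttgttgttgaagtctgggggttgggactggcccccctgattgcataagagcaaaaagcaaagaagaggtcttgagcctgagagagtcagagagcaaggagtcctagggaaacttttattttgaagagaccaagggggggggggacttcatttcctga
Kit, chr5:75574737-75574915, plus strand: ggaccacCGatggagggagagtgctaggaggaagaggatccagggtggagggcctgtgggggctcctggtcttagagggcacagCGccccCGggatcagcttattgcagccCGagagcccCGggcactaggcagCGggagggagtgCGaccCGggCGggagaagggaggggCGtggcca
Kdr, chr5:75978459-75978658, minus strand: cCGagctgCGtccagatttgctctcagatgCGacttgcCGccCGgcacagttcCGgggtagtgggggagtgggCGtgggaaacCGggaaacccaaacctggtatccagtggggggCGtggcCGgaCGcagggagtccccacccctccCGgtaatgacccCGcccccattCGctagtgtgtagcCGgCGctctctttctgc
Erbb2, chr11:98412270-98412469, plus strand: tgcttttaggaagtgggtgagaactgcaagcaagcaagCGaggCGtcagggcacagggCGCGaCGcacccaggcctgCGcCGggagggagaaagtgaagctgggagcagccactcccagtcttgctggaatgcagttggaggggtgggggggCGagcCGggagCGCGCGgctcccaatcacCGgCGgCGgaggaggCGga

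These stretches hold 35 CpGs upstream of Igf1r, 9 upstream of Egfr, 5 upstream of Axl and 2 upstream of Pdgfra. Upstream of Kit there are 10 in 179 bases, and 16 each upstream of Kdr and Erbb2. The Kit sequence thus carries more CpGs than those of Egfr, Axl and Pdgfra, although these 3 genes had a H3K4me3 peak and Kit did not. Of the 10 genes, 8 had an entry in the promoter table, which spans 250 bases before to 50 bases after a start. The GC box (GGGCGG, searched on both strands) was present in 6 of these 8 promoters, those of Egfr, Igf1r, Met, Axl, Kit and Kdr, and in 35.7% of all 32851 promoters of the table. CCAAT was present in 1 (Erbb2; 37.4% of all) and TATAAA in 0 (13.6% of all). TGACTCA, the letters bound by AP-1, occurred in 1 (Met; 5.20% of all) and CACGTG, an E-box, in the same promoter (7.15% of all). GGAATG, bound by TEAD factors, was found in 2 (Axl and Erbb2; 14.7% of all), and TGTGGT, bound by RUNX factors, in 0 (16.8% of all). None of the motifs searched contains another, and a match is a description of the sequence only.

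All 7 fibroblast receptors had a H3K4me3 promoter peak, as did 2 of the other 3 genes. Over all protein-coding genes the share was 59.1%, and over 48 further receptor tyrosine kinases it was 36 of 48. The widest peak of the 7 genes had a median width of 2639 bp, with a range from 1706 to 5106 bp. The median of all 12966 genes with a peak was 1255 bp, with an upper quartile of 1710 bp and a 90th percentile of 2278.5 bp. Kdr and Erbb2 had widths of 1009 and 1875 bp. The ranges of both sets overlap, as the Erbb2 peak was wider than those of Egfr and Met.

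**Figure D1:**
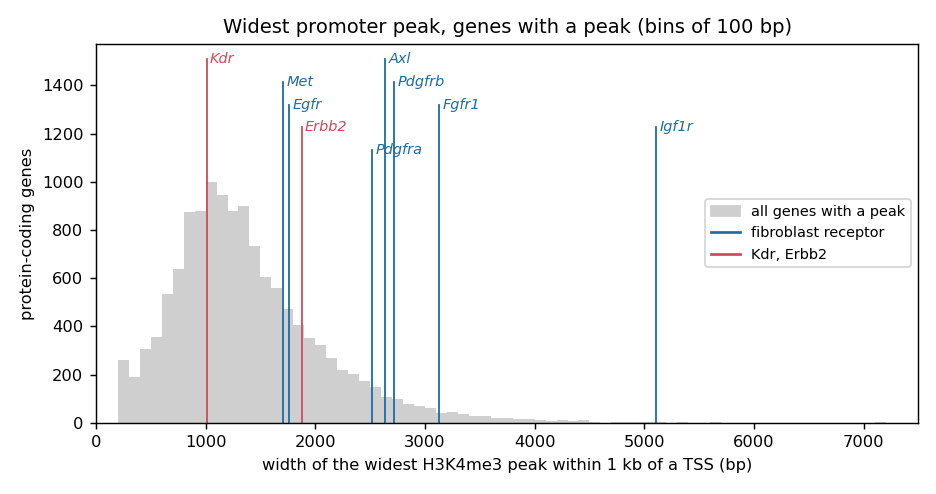
Width of the widest H3K4me3 peak within 1 kb of a TSS (horizontal axis, bp) against the number of protein-coding genes (vertical axis, bins of 100 bp), with the 9 receptor genes that had a peak as lines. Igf1r stands at 5106 bp far out in the tail, Pdgfra, Axl, Pdgfrb and Fgfr1 lie between 2520 and 3127 bp, Erbb2, Egfr and Met lie between 1706 and 1875 bp, and Kdr at 1009 bp is near the mode.

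The PDGF receptors bind the PDGF dimers that drive proliferation and migration of mesenchymal cells. Pdgfra (ENSMUSG00000029231.15) spans chr5:75152292-75198215 on the plus strand. It had 2 promoter peaks of 2520 and 1498 bp, 4018 bp in sum, and 97.7% of the genes with a peak had a smaller sum. Unlike in the other genes with a peak, neither peak covered the principal TSS. The first began 489 bp downstream of it and reached to 3008 bp, and the second reached to 4748 bp. Together they covered 5 of the 9 annotated TSSs of the gene and lay completely within it. TSSs of other annotated genes lay within 1 kb as well, Gm42802 and Gm42803 at the first peak and Gm42803 at the second. Pdgfrb (ENSMUSG00000024620.11) on chromosome 18 had a single peak of 2721 bp, wider than in 95.3% of the genes with a peak. It started 302 bp upstream of the principal TSS and reached 2418 bp into the gene.

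Fgfr1 encodes the main FGF receptor of mesenchymal cells. The gene (ENSMUSG00000031565.18) spans chr8:25513654-25575718 on the plus strand and has 18 annotated TSSs. It had peaks of 200 and 3127 bp, the latter wider than in 97.5% of the genes with a peak and covering 7 TSSs. The wide peak began 10 bp upstream of the principal TSS and extended 3116 bp downstream. A further peak of 281 bp followed in the first intron and ended 3487 bp from the TSS. The annotated 5′ end of the gene had no peak within 1 kb.

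Igf1r, which encodes the receptor for IGF-I and IGF-II, carried the widest peak. The gene (ENSMUSG00000005533.10) spans chr7:67952827-68233668 on the plus strand. Its peak was 5106 bp wide, and 99.9% of the genes with a peak had a narrower one. It extended 2439 bp upstream and 2666 bp downstream of the principal TSS, so that 52.2% of it lay inside the gene. Egfr, the EGF receptor gene (ENSMUSG00000020122.16; chr11:16752203-16918158, plus strand), had a peak of 1760 bp. Met, encoding the receptor for hepatocyte growth factor (ENSMUSG00000009376.15; chr6:17463800-17573980, plus strand), had one of 1706 bp. These widths were above those of 76.7% and 74.8% of the genes with a peak and thus closer to the middle of the distribution. Axl, a receptor for the vitamin K-dependent protein Gas6, lies on the minus strand (ENSMUSG00000002602.16; chr7:25757273-25788705). Its peak of 2639 bp reached 825 bp upstream and 1813 bp downstream of the principal TSS and covered 5 of 8 TSSs.

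Kit, the receptor for stem cell factor (ENSMUSG00000005672.12; chr5:75574916-75656722, plus strand), had no peak at any of its 8 TSSs. The nearest peak lay 133.6 kb from the principal TSS. Kdr, a receptor for vascular endothelial growth factor (VEGF) (ENSMUSG00000062960.10; chr5:75932827-75978458, minus strand), had a peak of 1009 bp that reached 379 bp upstream and 629 bp downstream of its only TSS. This was wider than in 31.9% of the genes with a peak. Erbb2 encodes an EGF receptor relative without a ligand of its own (ENSMUSG00000062312.5; chr11:98412470-98437716, plus strand). Its peak of 1875 bp was wider than in 80.5% of the genes with a peak and extended 213 bp upstream and 1661 bp downstream of the TSS.

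**Figure D2:**
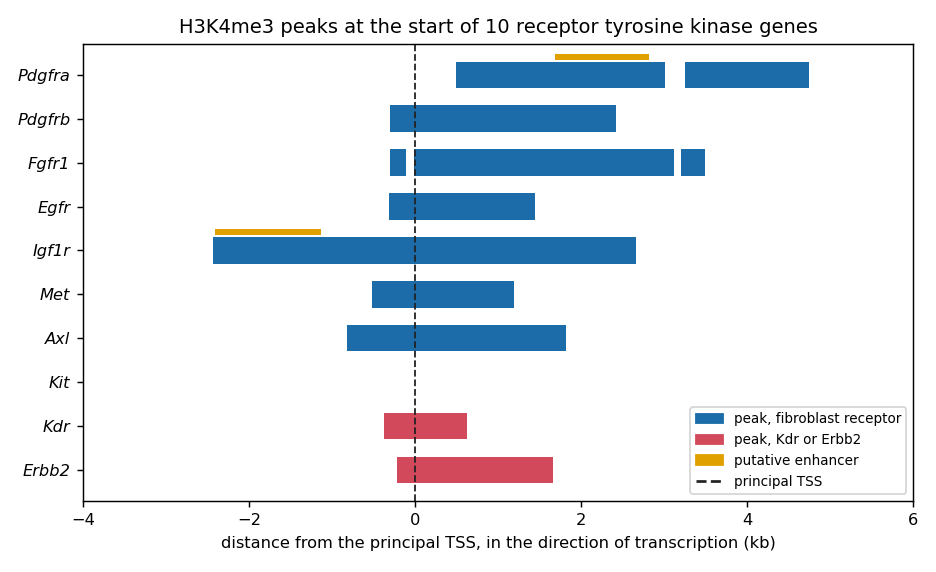
H3K4me3 peaks (bars, all peaks in the range shown) of the 10 genes along the distance from the principal TSS in kb, with positive values in the direction of transcription and putative enhancers as thin bars above. In Pdgfra both peaks lie downstream of the TSS, starting at 489 bp, the Igf1r peak reaches 2439 bp upstream, and Kit has no peak.

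In the other 8 genes with a peak, most of the width lay downstream of the principal TSS, except for Igf1r, whose peak was nearly symmetric. The RefSeq start of Igf1r (67952257) lies upstream of its principal TSS (67952827). From the RefSeq start the Igf1r peak also reached further downstream than upstream. In 2 genes a promoter peak was shared with a putative enhancer. The Igf1r peak overlapped an enhancer of 1284 bp at -1.77 kb, and the first Pdgfra peak covered an enhancer of 1133 bp (chr5:75153991-75155123), the only one inside that gene. The latter was listed as an enhancer although GENCODE TSSs lie within 1 kb of it. The enhancer at the Igf1r peak lies within 1 kb of the RefSeq start of Igf1r. How often promoter peaks of all genes overlap a listed enhancer was not analysed.

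To relate the peaks to the sequence, CpGs were counted in 500 bp on both sides of the principal TSS, and the observed to expected ratio was calculated, which is 1 where CpGs are as frequent as the C and G content would give. Over all protein-coding genes the median ratio was 0.571, with 0.736 for genes with a peak and 0.198 for those without. The 7 fibroblast receptors fell on both sides. Igf1r (0.959, 99 CpGs), Fgfr1 (0.802), Met (0.763) and Egfr (0.632) were CpG-rich. Axl (0.325, 30 CpGs), Pdgfra (0.341, 15 CpGs) and Pdgfrb (0.394, 31 CpGs) were below the median of all genes, with peaks of 2639, 2520 and 2721 bp, which lie between those of Fgfr1 and Igf1r above and Egfr and Met below. Kit, on the other hand, had a ratio of 0.684 with 74 CpGs, in the range of Kdr (0.665) and Erbb2 (0.730). Of the 8314 genes that were at least as CpG-rich as Kit, 94.6% had a peak. Among the 13 receptor tyrosine kinases without a peak, Epha8 (0.882), Ntrk2 (0.789) and Ephb1 (0.775) had still higher ratios.

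A ratio below 0.4 was found for 8497 genes, a limit set after the values were seen. Of these genes, 14.6% had a promoter peak, and 1.73% had one of at least 2000 bp, compared with 9.46% of all protein-coding genes. From the list of 58 receptor tyrosine kinases 13 were below this limit, and 5 of them had a peak of at least 2000 bp, compared with 15 of all 58. The ratio is that at the principal TSS, whereas the peak can lie at any TSS of the gene, as in Pdgfra. The limit lies just above the ratio of Pdgfrb, so that 3 of the 5 are genes for which it was set. The 5 genes were Pdgfra, Pdgfrb and Axl together with Ddr1 (3009 bp) and Ddr2 (2830 bp), which encode the discoidin domain receptors for collagen. For Ddr1 and Ddr2 the position of the peak relative to the principal TSS was not analysed.

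**Figure D3:**
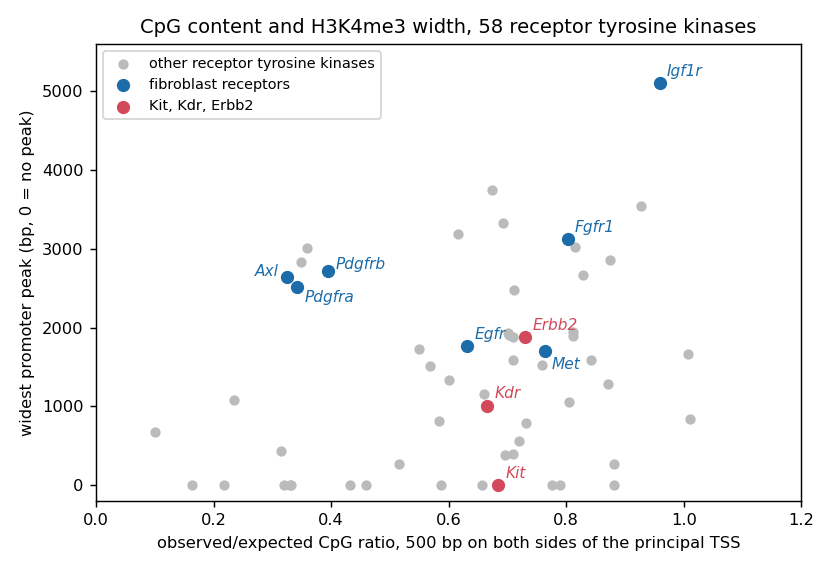
Observed to expected CpG ratio around the principal TSS (horizontal axis) and width of the widest promoter peak (vertical axis, bp, with 0 for no peak) for 58 receptor tyrosine kinase genes, 1 point per gene. Axl, Pdgfra and Pdgfrb lie at ratios of 0.325 to 0.394 with peaks of 2520 to 2721 bp, whereas Kit lies at 0.684 without a peak.

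The CpG content under the peaks separated the 3 CpG-poor genes. The Pdgfra peaks lay over sequence with a higher ratio than at the TSS (0.341), with values of 0.632 and 0.583 compared with a median of 0.565 over all peaks. In steps of 1000 bases, the 2 before the principal TSS held 35 and 36 CpGs, and the 5 after it 52, 51, 39, 38 and 46, so that the steps in the middle of the marked stretch were close to those upstream. The most CpG-rich 200 intronic bases of the first peak, 1468 bp downstream of the TSS, were picked for this content and are shown here as an example of the marked sequence, with the 11 CpGs in capitals.
Pdgfra peak, chr5:75153774-75153973, plus strand: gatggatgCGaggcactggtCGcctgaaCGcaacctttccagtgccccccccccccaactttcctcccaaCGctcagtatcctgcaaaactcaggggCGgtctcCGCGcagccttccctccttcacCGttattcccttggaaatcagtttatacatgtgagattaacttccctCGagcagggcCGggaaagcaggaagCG

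In contrast, the peaks of Pdgfrb and Axl were themselves CpG-poor, with ratios of 0.233 and 0.235. On the chromosomes used there were 1871 peaks of at least 2000 bp, with a median ratio of 0.655. Only 0.909% of these had a lower ratio than the Pdgfrb peak and 0.962% a lower ratio than the Axl peak. The Igf1r peak, with 379 CpGs and a ratio of 0.806, was above 82.5% of the wide peaks.

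The putative enhancers were counted next. The 7 fibroblast receptors had 110 enhancers in the gene or within 200 kb, with a median of 9 per gene and a range of 3 to 32. Kit, Kdr and Erbb2 had 0, 1 and 4. At least 1 enhancer in this window was present for all 7 and for 2 of the other 3 genes, against 85.6% of all protein-coding genes, whose median was 6. Axl, with 3 enhancers, had fewer than Erbb2, so that the ranges overlap. In the order of numbers, Igf1r had 32, Egfr 27, Met 26, Fgfr1 9, Pdgfrb 8, Pdgfra 5, Erbb2 4, Axl 3, Kdr 1 and Kit 0. The order depended on the window. Pdgfra and Erbb2 changed places with windows of 100 kb (1 and 2) and 500 kb (16 and 20). Axl had more than Erbb2 with 100 kb (3 and 2), and Met more than Egfr with 500 kb (49 and 34). With 200 kb around the annotated 5′ end, Igf1r (18) came after Egfr (24) and Met (22). No enhancer was in the window of more than 1 of the genes. Since the windows grow with the gene, the density was also determined. It was 5.10 enhancers per 100 kb for Met, 4.77 for Egfr and 4.70 for Igf1r, above 97.9% or more of all genes. Fgfr1 (1.95) and Pdgfrb (1.82) were above the median of 1.24, and Pdgfra (1.12), Erbb2 (0.941), Axl (0.695), Kdr (0.224) and Kit (0) were below it.

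Inside the genes, 50 enhancers were found in 6 of the 7 fibroblast receptor genes, all but Axl, and 0 in Kit, Kdr and Erbb2. An enhancer inside the gene was present in 25.0% of all protein-coding genes. Of the 50, 46 were in Egfr (19), Igf1r (17) and Met (10). At least 10 enhancers were found in 1.61% of all genes. These 3 genes are long, between 110.2 and 280.8 kb. In the 2492 genes of at least 100 kb, 75.8% had an enhancer inside, with a median of 3, and 96.9%, 95.5% and 86.0% of them had fewer than Egfr, Igf1r and Met, respectively. Fgfr1 had 2 enhancers inside, and Pdgfra and Pdgfrb had 1 each. Kit is longer than Fgfr1, Pdgfra and Pdgfrb, with 81.8 kb.

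**Figure D4:**
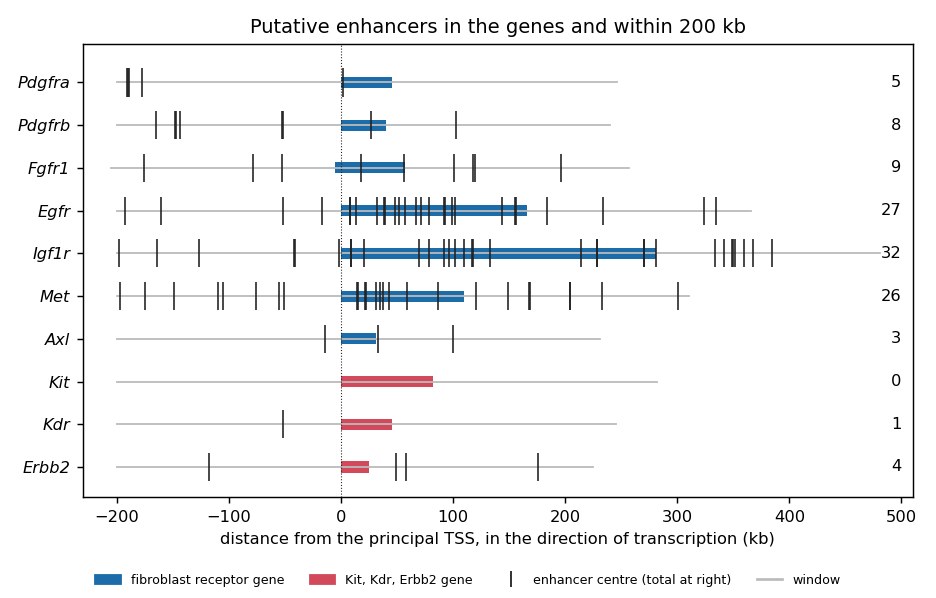
Centres of putative enhancers (ticks) in the 10 genes (bars) and 200 kb on both sides (lines), along the distance from the principal TSS in kb in the direction of transcription, with the number of enhancers at the right. Egfr, Igf1r and Met hold 19, 17 and 10 enhancers inside the gene, whereas Kit, Kdr and Erbb2 hold 0.

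The enhancers of the 3 long genes were unevenly spread. In Egfr 16 of the 19 were in the first intron, which has 106.3 kb and makes up 64.1% of the gene. When enhancers less than 12.5 kb apart were joined, the largest run in Egfr had 9 enhancers over 46.8 kb, from 32.0 to 78.8 kb downstream of the TSS. In Met the largest run had 8 of the 10 enhancers over 29.4 kb, from 14.2 to 43.6 kb. In Igf1r the 17 enhancers fell into 7 runs, the largest with 6 enhancers over 26.3 kb, beginning 91.8 kb from the TSS, and 3 of the 17 were in the first intron. The TSS nearest to the enhancer was often that of the gene itself. This held for 21 of the 27 enhancers in the Egfr window, 21 of 32 for Igf1r and 14 of 26 for Met. These windows held 3, 4 and 4 further coding genes, and the share over all coding genes was not analysed. Among the other enhancers of the Met window, 5 were nearest to Capza2, 3 to Cav1, 2 to Cav2 and 2 to St7, and in the Igf1r window 8 were nearest to Fam169b.

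For the remaining receptors, most enhancers of the window were nearest to a neighbour. Of the 5 in the Pdgfra window, 4 lay upstream, at -191.1 to -177.7 kb, and were nearest to Chic2. In the Pdgfrb window 1 of 8 was nearest to Pdgfrb, 26.7 kb from the TSS. That enhancer overlapped intron 11 of the gene and had 78 of its 334 bp in an exon. For Fgfr1, 4 of 9 were nearest to it, including 1 of 1978 bp in the second intron, 18.1 kb from the principal TSS. For Axl and Erbb2 the numbers were 0 of 3 and 0 of 4. The window of Axl included an enhancer of 2619 bp at Tgfb1, the widest of all 115. Axl and Erbb2 lie among many genes, with 12 and 15 further coding genes in the window. The only enhancer near Kdr was nearest to Kdr itself, 52.0 kb upstream of its TSS.

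To show the sequence of such elements, the central 200 bases of the widest enhancer inside Egfr and Igf1r are given, in the direction of the gene, with CpGs in capitals. Both lie in introns and were read from the GRCm38.p6 genome.
Egfr enhancer, chr11:16809661-16809860, plus strand: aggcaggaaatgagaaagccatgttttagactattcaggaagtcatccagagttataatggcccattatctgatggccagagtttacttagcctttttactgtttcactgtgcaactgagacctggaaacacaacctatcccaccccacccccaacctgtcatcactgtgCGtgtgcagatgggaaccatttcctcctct
Igf1r enhancer, chr7:67973630-67973829, plus strand: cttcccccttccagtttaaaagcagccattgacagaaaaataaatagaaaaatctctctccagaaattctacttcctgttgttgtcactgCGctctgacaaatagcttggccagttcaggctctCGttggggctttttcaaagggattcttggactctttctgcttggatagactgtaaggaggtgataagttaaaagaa

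These hold 1 and 2 CpGs, and the 50 enhancers inside the genes had a median of 1.00 CpG per 100 bases in their central 200 bases, as did all 32965 enhancers. For comparison, the peaks of Egfr and Igf1r had 5.74 and 7.42 CpGs per 100 bases. The same letters as above were searched in the central 200 bases on both strands. TGACTCA, the letters of AP-1, was present in 7 of the 50 (14%), 4 in Egfr, 2 in Igf1r and 1 in Met, close to the 11.4% of all enhancers. The shares for GGAATG (12%, all 15.7%), TGTGGT (16%, all 17.4%), CCAAT (22%, all 21.8%) and GGGCGG (6%, all 5.08%) were also near those of all enhancers. TATAAA and CACGTG were found in 0 of the 50, compared with 8.33% and 3.06% of all.

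H3K4me3 was also found away from the TSSs. The bodies of the fibroblast receptor genes had 7 peaks more than 1 kb from a TSS of the gene, in 4 of the 7 genes, and those of Kit, Kdr and Erbb2 had 0. Such a peak was present in 13.6% of all coding genes. The 7 genes together are longer, with 736.3 kb compared with 152.7 kb, and had 0.951 such peaks per 100 kb, against 0.440 over all coding genes. Of the 7 peaks, 4 lay on enhancers, namely both in Egfr (205 and 279 bp, 13.9 and 92.0 kb downstream of the TSS), 1 in Igf1r (287 bp) and 1 in Fgfr1 (290 bp). The other 3 were the peak of 281 bp next to the Fgfr1 promoter, a peak of 1057 bp in the second intron of Igf1r and a peak of 869 bp in the fourth intron of Axl. All were narrower than the promoter peak of Kdr except for that of Igf1r. The share of gene body peaks on enhancers over all coding genes was not analysed.

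Pdgfra, Kit and Kdr are neighbours on chromosome 5 and allow a comparison within a single region. Between the second Pdgfra peak and the Kdr peak, over 820.8 kb, there were 4 H3K4me3 peaks of 255, 207, 213 and 200 bp, none within 1 kb of a TSS, and 0 enhancers. Kit is the only coding gene between Pdgfra and Kdr. The nearest enhancers were 419.8 kb from Kit on the Pdgfra side, which is the one inside Pdgfra, and 373.1 kb on the Kdr side. The stretch with the widest marks of the region and that without a promoter peak thus belong to genes of the same receptor family, since PDGFRA and KIT are closely related in structure.

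**Figure D5:**
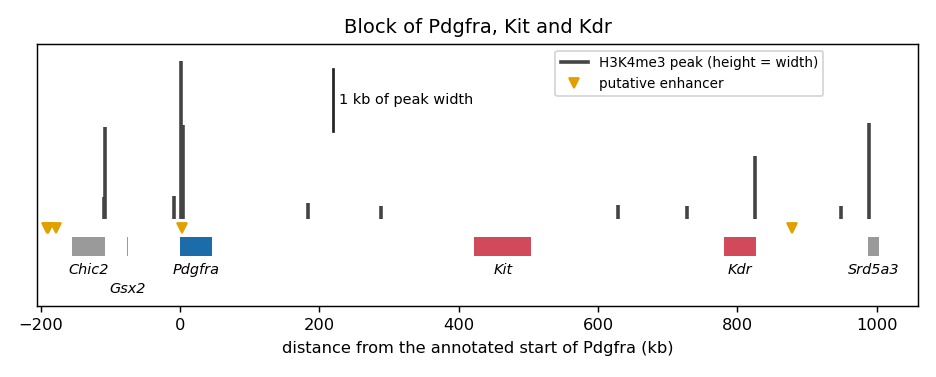
H3K4me3 peaks (vertical lines, height to scale with peak width, scale bar 1 kb), putative enhancers (triangles) and coding genes (boxes) around Pdgfra, Kit and Kdr, along the distance in kb from the annotated start of Pdgfra. The 820.8 kb between the peaks of Pdgfra and Kdr hold 4 peaks of 200 to 255 bp and 0 enhancers.

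The receptors were further set beside their families and pathway. Within the PDGF receptor family Pdgfra and Pdgfrb had peaks, as did Flt3 (565 bp), and Kit and Csf1r, the receptor for macrophage colony-stimulating factor, did not. All 4 EGF receptor genes, all 4 FGF receptor genes and all 3 VEGF receptor genes had a peak. The share was 45 of 58 over all listed receptor tyrosine kinases and 59.1% over all coding genes. Families with lower shares included the neurotrophin receptors (1 of 3), MET (1 of 2) and ALK (1 of 2). Of the 48 receptor tyrosine kinases outside the 10, the widest peaks were at Epha4 (3747 bp), Fgfr2 (3542 bp) and Epha2 (3321 bp), all wider than that of Fgfr1. Fgfr2 held 65 enhancers in an annotated length of 2960.9 kb, whereas the other FGF receptor genes span 15.4 to 62.1 kb. How many of the 65 lie near the TSSs of the receptor itself was not analysed. The Fgfr2 window had 2.08 per 100 kb, less than those of Egfr, Igf1r and Met. Musk, which had no promoter peak, reached 5.12 per 100 kb, slightly above Met (5.10). Ddr2 and Alk, the latter without a peak, held 11 enhancers each inside the gene, with window densities of 3.90 and 1.14 per 100 kb. Of the 48, the 36 with a peak had a median width of 1587.5 bp.

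Among 30 ligand genes 25 had a promoter peak, compared with 59.1% of all coding genes. Pdgfa had a peak of 3674 bp, and Vegfa, the ligand of KDR, one of 5020 bp, nearly as wide as that of Igf1r. Hbegf, an EGF receptor ligand, had 2767 bp. Kitl, the gene for the KIT ligand, had a peak of 1431 bp, although Kit itself had none. For Met this was reversed, as Hgf was among the 5 ligand genes without a peak, together with Igf2, Fgf1, Epgn and Vegfd. The neuregulin gene Nrg1 held 15 enhancers in 1069.5 kb, Pdgfc 11 in 177.6 kb and Pdgfd 8 in 210.3 kb, and the densities in their windows were 1.70, 4.33 and 2.13 per 100 kb. All 21 adaptor and effector genes had a peak, with a median of 1602 bp, the widest at Irs1 (2792 bp), Plcg1 (2541 bp) and Irs2 (2483 bp), and Frs2, the adaptor of FGF receptors, held 10 enhancers in 79.1 kb. All 10 feedback inhibitor genes had one as well, with a median of 1826.5 bp, and the widest were at Spred2 (2833 bp), Spred1 (2823 bp) and Spry2 (2747 bp), which restrain the signal from receptor tyrosine kinases to the MAP kinases. Most inside the gene in this list were found in Cblb, which held 5 enhancers in 176.8 kb and encodes a ubiquitin ligase of these receptors.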

How the data were processed

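According to the study's methods the authors trimmed reads with Trim Galore, aligned them with BWA to mm10 (GRCm38.p6), filtered with samtools, merged replicates with Picard and called narrow peaks with MACS. Versions are not given in the sources used here. Enhancers were defined by the authors from H3K4me1, H3K27ac and open chromatin in control cells, leaving out regions around TSSs. Both deposited lists hold positions (chromosome, start and end), with 0 columns of values per sample. The depth each library reached is therefore not known here, replicates could not be compared, and changes across time points were not analysed here.

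Peak starts were counted from 0 and enhancer starts from 1 in the deposited lists, and all positions given here count from 1. No region exceeded the 21 chromosomes of the reference. Every transcript start in GENCODE M21 was taken as a TSS, while the authors named a later release. The principal TSS is that of the principal transcript of the annotation. Interval functions were tested on simulated data and differed from a brute-force count in 0 of 1640 queries. Python 3.11.15, NumPy 2.4.6, pandas 2.3.3 and Matplotlib 3.10.9 were used.

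The 10 genes, the gene lists, the markers and the limits were chosen with earlier results of these data known. The text names all 10 genes and, from each list, at most the 3 genes with the widest peak, the 3 with the most enhancers inside and, if 10 or fewer, those without a peak. Tek, Kitl, Flt3, Csf1r, Ddr1, Ddr2, Epha8, Ntrk2, Ephb1, Musk and Alk were named in addition, after their values were seen. The same holds for the genes next to enhancers and those next to the Pdgfra peaks. Genes are no replicates, so that counts and medians stand beside those of all coding genes, where these were analysed, without a test. Promoter sequences were matched to RefSeq by symbol, with 8 of 10 found. Alternatives were other TSS sets, windows, width limits, merging and centres.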

Additional observations from a re-analysis of the deposited data

How the results depend on the processing

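No paired analysis was possible because neither list separates replicates or holds values per sample. Counts and medians were called the same where they were within 1.5 times the reported value, which held for 75 of 81 alternatives. The exceptions concern enhancers. With 500 kb on both sides of the gene the median number per gene was 33 for the 7 fibroblast receptors and 6 for Kit, Kdr and Erbb2, and the median density of the latter was 0.574 per 100 kb, while with 100 kb it was 0.407. Counting only enhancers whose nearest TSS was that of the gene gave medians of 4 and 0. For single genes, 23 of 192 values moved by more than 1.5 times, 10 up and 13 down. Where a gene lost its peak under an alternative, its widths are not among these values. The group median of widths then leaves that gene out. The enhancers of Pdgfra ranged from 1 (100 kb) to 16 (500 kb) around the 5 reported. Pdgfra merged to 1 peak of 4260 bp when peaks within 1 kb were joined. Its summed width fell from 4018 to 2520 bp when only the annotated 5′ end counted as TSS. Fgfr1 had no peak when only the annotated 5′ end counted as TSS, and Pdgfrb had none when the centre of the peak had to lie within 1 kb of a TSS. Kit had no peak in any of the 7 alternatives. Since the lists hold no counts, weak peaks below the authors' threshold, and how many reads stand behind a width, are unknown.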
